A study of Homo sapiens with 2 samples.

Results

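DNase I hypersensitive sites at the ends of long non-coding RNA (lncRNA) genes were examined in 2 human osteosarcoma cell lines, Saos-2 and U2OS. A member was a hotspot, the authors' name for a called region of many DNase I cuts, on chromosomes 1 to 22 no farther than 1 kb from an end of a RefSeq lncRNA gene. It also had to lie more than 1 kb from both ends of every protein-coding gene and more than 500 bp from any tRNA or microRNA gene. The rule selected 2254 of 50120 autosomal hotspots in Saos-2 (4.50%, 95% Wilson interval 4.32 to 4.68%) and 3078 of 61903 in U2OS (4.97%, 4.80 to 5.15%), out of 51556 and 63388 hotspots in all. The rule used positions only, so overlap, significance, width and sequence were free to vary among the members.

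Nuclei of each line were digested with DNase I for 3 min at 37 °C, and the fragments were amplified for between 8 and 10 PCR cycles. Both are established lines with no treatment or engineered allele named in the labels. As background, Saos-2 lacks functional p53 while U2OS retains the wild-type gene, and both have rearranged genomes. With a single library for each line there was no replicate spread to test against, so p-values are not given and every difference compares these libraries. Intervals on shares cover counting error only, and neighbouring sites are not independent. The deposited lists do not give read depth, and more hotspots are called from a deeper or cleaner library, so depth and accessibility cannot be told apart where the lines differ in number.

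An lncRNA gene, like a protein-coding one, starts at a promoter that must be freed of nucleosomes for RNA polymerase II to load, and that opening is what DNase I detects. Promoters rich in CpG dinucleotides tend to be open in many cell types, while CpG-poor promoters tend to be open in a restricted set. AP-1, a dimer of FOS and JUN family proteins, binds many accessible sites away from CpG islands in cells of mesenchymal type. Many lncRNAs arise from the opposite strand of coding promoters, and those sites were removed here by the distance rule.

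The sequences below are RefSeq promoter windows on GRCh38.p14, from 250 bases before to 50 bases after the gene start, printed 5′ to 3′ on the strand of the gene. Capitals mark exact matches, on either strand, of 9 motifs. The ETS word was CCGGAAGT and the cyclic AMP response element (CRE) was searched as TGACGTCA. The AP-1 site was searched as TGACTCA, whose reverse complement on the other strand reads TGAGTCA. The GC box was GGGCGG and the TATA box was spelled as TATAAA. The CCAAT box was searched by the letters of its name. The E-box was CACGTG and the RUNX word was spelled as AACCACA. NRF1 was searched as a palindrome given by its name alone. No 2 motifs of this set are contained in one another. A match is a description of the letters and not evidence of binding. The first 4 windows belong to CpG-rich promoters that carried a member in both lines, and they show the dense CG content of that class. They are MIR17HG at chr13:91347437-91347736 (plus strand), SNHG5 at chr6:85678684-85678983 (minus), MALAT1 at chr11:65497488-65497787 (plus) and LOC100630923 at chr7:102363611-102363910 (plus), with 42, 41, 37 and 22 CG dinucleotides.
MIR17HG: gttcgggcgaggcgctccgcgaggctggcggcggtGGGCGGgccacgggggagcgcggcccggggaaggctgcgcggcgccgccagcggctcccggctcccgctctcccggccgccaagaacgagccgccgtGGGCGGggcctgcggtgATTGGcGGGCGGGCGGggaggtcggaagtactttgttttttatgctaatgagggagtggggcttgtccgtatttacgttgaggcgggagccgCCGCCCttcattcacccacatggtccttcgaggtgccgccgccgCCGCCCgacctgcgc
SNHG5: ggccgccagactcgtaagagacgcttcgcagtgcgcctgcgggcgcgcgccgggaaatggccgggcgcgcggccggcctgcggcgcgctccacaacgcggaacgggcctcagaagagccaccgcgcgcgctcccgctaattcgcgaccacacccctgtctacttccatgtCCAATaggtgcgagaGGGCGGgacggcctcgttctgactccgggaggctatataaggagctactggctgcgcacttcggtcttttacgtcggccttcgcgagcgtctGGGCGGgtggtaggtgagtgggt
MALAT1: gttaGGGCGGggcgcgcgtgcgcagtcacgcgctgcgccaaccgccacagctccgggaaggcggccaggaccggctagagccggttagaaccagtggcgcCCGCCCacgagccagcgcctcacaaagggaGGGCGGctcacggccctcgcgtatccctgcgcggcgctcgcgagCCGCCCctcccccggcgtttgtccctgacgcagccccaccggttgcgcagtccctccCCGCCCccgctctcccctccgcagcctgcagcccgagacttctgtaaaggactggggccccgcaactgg
LOC100630923: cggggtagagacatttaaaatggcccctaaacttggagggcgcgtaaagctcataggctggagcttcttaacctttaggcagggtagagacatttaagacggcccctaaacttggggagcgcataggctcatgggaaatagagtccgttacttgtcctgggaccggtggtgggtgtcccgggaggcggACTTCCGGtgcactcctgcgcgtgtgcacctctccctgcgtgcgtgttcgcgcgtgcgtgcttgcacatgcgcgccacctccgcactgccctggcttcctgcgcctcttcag

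The next 4 windows are CpG-poor and hold the AP-1 word, and they differ in the line that opened them. CYTOR at chr2:87455177-87455476 (plus) was open in both lines and holds the word 2 times, at 19 and 9 bases before the start. Its U2OS hotspot was among the least significant of that list, at percentile 2.23. LUCAT1 at chr5:91314353-91314652 (minus) and LINC01531 at chr19:35405357-35405656 (plus) were open in U2OS only. ITPR2-AS2 at chr12:26318674-26318973 (plus) was open in Saos-2 only. Their CG counts were 5, 3, 4 and 4.
CYTOR: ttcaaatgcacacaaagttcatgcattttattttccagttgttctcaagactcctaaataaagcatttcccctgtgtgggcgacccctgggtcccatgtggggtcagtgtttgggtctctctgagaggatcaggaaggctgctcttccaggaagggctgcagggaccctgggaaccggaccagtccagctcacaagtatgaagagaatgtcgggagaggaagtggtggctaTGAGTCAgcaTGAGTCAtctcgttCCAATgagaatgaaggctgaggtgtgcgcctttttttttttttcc
LUCAT1: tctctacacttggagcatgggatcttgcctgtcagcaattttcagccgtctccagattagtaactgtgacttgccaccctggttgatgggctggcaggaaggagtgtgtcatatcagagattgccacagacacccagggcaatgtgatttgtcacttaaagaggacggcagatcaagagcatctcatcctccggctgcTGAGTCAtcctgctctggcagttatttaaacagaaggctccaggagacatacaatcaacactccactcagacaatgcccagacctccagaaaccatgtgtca
LINC01531: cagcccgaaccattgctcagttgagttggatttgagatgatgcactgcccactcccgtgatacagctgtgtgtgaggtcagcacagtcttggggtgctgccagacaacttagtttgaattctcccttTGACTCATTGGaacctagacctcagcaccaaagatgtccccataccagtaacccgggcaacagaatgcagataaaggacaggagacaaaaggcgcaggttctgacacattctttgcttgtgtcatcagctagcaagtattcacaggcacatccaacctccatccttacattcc
ITPR2-AS2: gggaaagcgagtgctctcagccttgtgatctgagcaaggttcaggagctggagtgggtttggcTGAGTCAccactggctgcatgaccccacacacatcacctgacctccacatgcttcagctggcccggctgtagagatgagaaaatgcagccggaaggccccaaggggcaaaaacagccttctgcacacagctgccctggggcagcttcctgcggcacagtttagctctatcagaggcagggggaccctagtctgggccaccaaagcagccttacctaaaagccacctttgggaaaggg

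The last 2 windows are CpG-poor without the AP-1 word, and each was open in a single line. PURPL at chr5:27472042-27472341 (plus) was open in U2OS only, and holds no CG dinucleotide and no match of the 9 motifs. CARMN at chr5:149406595-149406894 (plus) was open in Saos-2 only, and holds 6 CG dinucleotides, an E-box and 2 CCAAT boxes.
PURPL: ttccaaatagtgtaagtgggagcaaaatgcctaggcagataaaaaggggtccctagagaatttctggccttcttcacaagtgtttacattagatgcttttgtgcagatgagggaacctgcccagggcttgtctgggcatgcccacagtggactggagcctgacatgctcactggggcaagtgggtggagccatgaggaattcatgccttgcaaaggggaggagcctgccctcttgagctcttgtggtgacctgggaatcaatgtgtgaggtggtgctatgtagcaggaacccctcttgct
CARMN: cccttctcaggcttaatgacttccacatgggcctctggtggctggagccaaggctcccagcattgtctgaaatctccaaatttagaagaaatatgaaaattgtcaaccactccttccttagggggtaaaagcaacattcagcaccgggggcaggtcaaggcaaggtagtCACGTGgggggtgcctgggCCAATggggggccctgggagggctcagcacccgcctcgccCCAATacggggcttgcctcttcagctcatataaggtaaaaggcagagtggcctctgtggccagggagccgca

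Before the distance rules, 4368 Saos-2 and 5382 U2OS hotspots lay within 1 kb of an lncRNA gene end. Of these, 2083 (47.7%) and 2273 (42.2%) also lay near a protein-coding end and were removed, and 31 in each line lay near a tRNA or microRNA gene. Among the members, 641 in Saos-2 (28.4%) and 908 in U2OS (29.5%) covered the gene end itself, and the median distance to the end was 208.5 and 209.5 bp. In the outermost 100 bp inside the limit there were 104 and 157 members, and in the 100 bp just outside it 107 and 149 hotspots met the other conditions. Members lay inside a protein-coding gene in 783 cases in Saos-2 and 977 in U2OS. A hotspot near several lncRNA genes was counted once as a member and once for each gene. This applied to 114 Saos-2 members (5.06%) and 166 U2OS members (5.39%), with at most 3 genes each.

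Most lncRNA genes had no member. Of 17433 autosomal lncRNA genes with at least 1 end more than 1 kb from coding ends, 3296 (18.9%) had a member in some line. Members were present in both lines for 1367 genes, for 614 in Saos-2 alone (3.52%) and for 1315 in U2OS alone (7.54%). Among all 56756 annotated autosomal genes, 3.71% had an end hotspot in Saos-2 alone and 7.4% in U2OS alone, so the single-line shares of lncRNA genes were near that background. The difference lay in the shared class. Of the lncRNA genes with a member, 41.5% (39.8 to 43.2%) had one in both lines, against 73.5% (72.7 to 74.3%) of protein-coding genes with an end hotspot. For all genes with an end hotspot it was 65.7%. The single-line parts were 18.6% (Saos-2) and 39.9% (U2OS) for these lncRNA genes, and 11.5% and 22.9% for all genes. The measures are unlike: lncRNA genes were classed by members, after sites near coding ends were removed, and the other genes by any end hotspot.

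Members were more frequent at the starts of genes than at their opposite ends. The strand and start were known for 11145 of 17795 lncRNA genes (62.6%), and the start coincided with an end of the gene span in 95.6% of them. Among 9106 starts more than 1 kb from coding ends, 1026 (11.3%, 10.6 to 11.9%) had a member in Saos-2 and 1351 (14.8%, 14.1 to 15.6%) in U2OS. At 10573 opposite ends the shares were 4.20% (3.83 to 4.60%) and 5.89% (5.46 to 6.36%). Cover peaked 50 bp before the start, where members covered 5.57% of 8657 starts in Saos-2 and 7.61% in U2OS, and it was under 1.2% throughout the window at the opposite end. At the start itself the shares were 5.13% and 7.09%, against 37.3% and 41.6% at 15101 protein-coding starts. Most members overlapped no promoter window, 1584 of 2254 in Saos-2 and 2207 of 3078 in U2OS. Genes of unknown strand have no such window. Of the members off every window, 58.8% in Saos-2 and 42.9% in U2OS were overlapped by the other line.

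**Figure D1:**
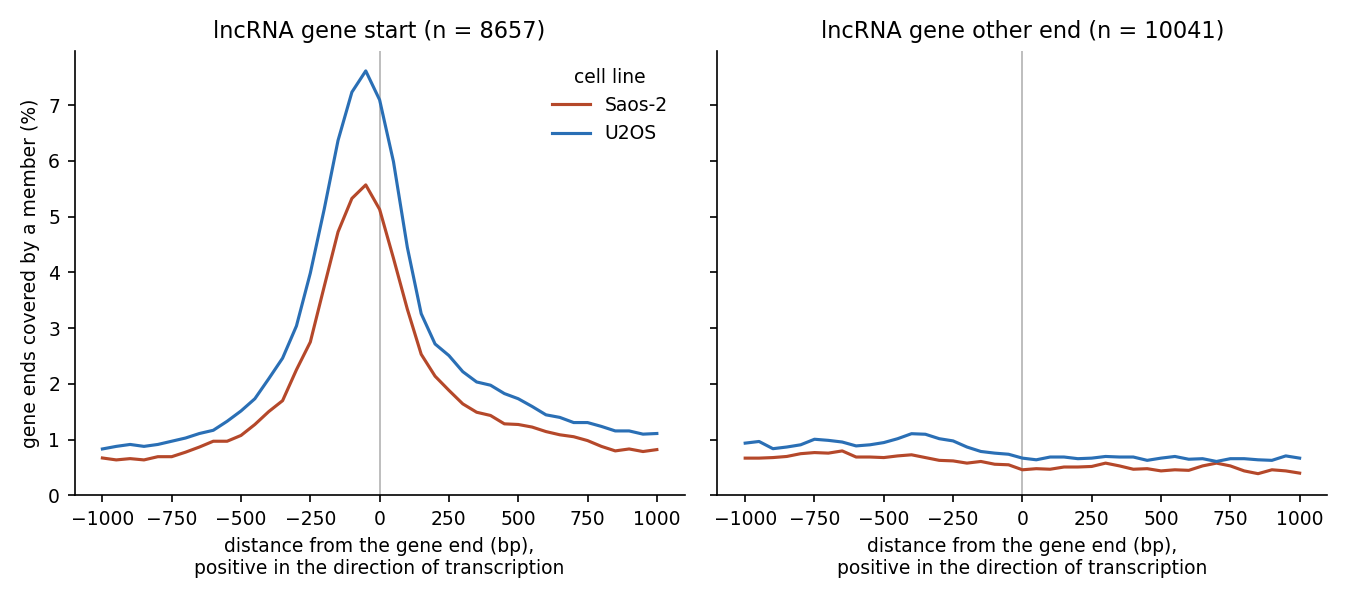
Percentage of lncRNA gene ends covered by a member at each distance from the gene start (left) and from the opposite end (right), for ends more than 2 kb from coding ends. Lines are the 2 cell lines, 1 library each. Both lines peak 50 bp before the start, at 5.57% in Saos-2 and 7.61% in U2OS, and neither has a peak at the opposite end.

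Members near a start were also shared more often than members near an opposite end only. In Saos-2, 67.0% of 1202 start members overlapped a U2OS hotspot, against 56.9% of 413 at opposite ends, a difference of 10.1 points (Newcombe 95% interval 4.65 to 15.5). In U2OS the shares were 51.1% of 1570 and 41.8% of 581, a difference of 9.32 points (4.58 to 14.0).

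Over all members, 1428 Saos-2 members (63.4%, 61.3 to 65.3%) shared 1 bp or more with a U2OS hotspot, and 1444 U2OS members (46.9%, 45.2 to 48.7%) overlapped a Saos-2 hotspot. The 826 members found in Saos-2 only were 36.6% of that line's members, where 41.7% of all autosomal Saos-2 hotspots had no U2OS overlap. The 1634 found in U2OS only were 53.1%, where the share over all autosomal U2OS hotspots was 53.2%. The share of members without overlap was thus below that background in Saos-2 and near it in U2OS. They were overlapped less often than hotspots at protein-coding ends, by 16.8 points in Saos-2 (difference -16.8, -18.9 to -14.6) and by 23.4 in U2OS (-23.4, -25.3 to -21.4). They were overlapped more often than hotspots at neither kind of end, by 11.2 points in Saos-2 (9.10 to 13.2) and 5.66 in U2OS (3.85 to 7.48).

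The same order held among hotspots of like significance. The significance of a hotspot, a −log10 value given by the authors, was ranked within its list. The median member lay at percentile 50.8 in Saos-2 and 51.0 in U2OS, and the median width was 246 and 256 bp. The list was split by this rank into 4 bins of equal size. Within each bin, members lay between the other classes in both lines. In the highest bin 84.4% of Saos-2 members were overlapped, against 96.2% at coding ends and 73.3% elsewhere. The same shares in U2OS were 72.1%, 94.2% and 67.9%. In bins of width the order held in 7 of 8 cases, and the exception was U2OS hotspots wider than 500 bp, of which 74.5% of members and 75.2% of hotspots elsewhere were overlapped. In the lowest bin of significance the shares of overlapped members fell to 44.9% in Saos-2 and 27.6% in U2OS.

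**Figure D2:**
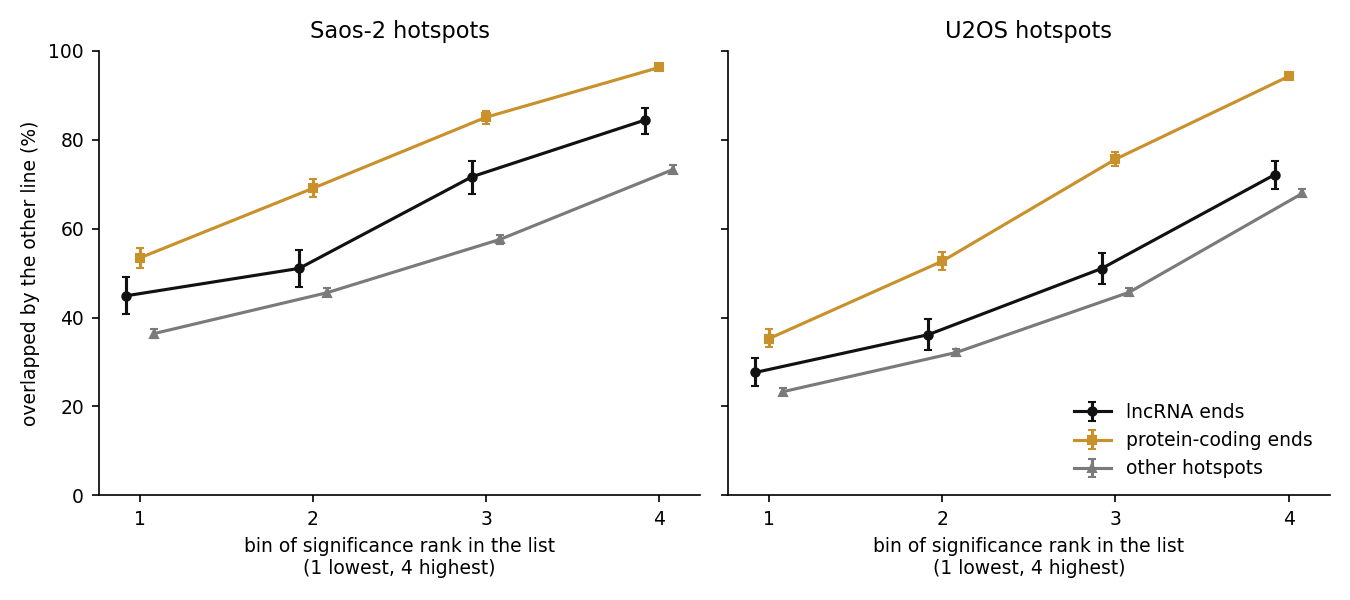
Percentage of hotspots overlapped by the other line, in 4 bins of significance rank within the list, for members at lncRNA ends, hotspots at protein-coding ends and all other hotspots. Error bars are Wilson 95% intervals. Members lie between the other classes in all 4 bins of both lines, from 44.9% to 84.4% in Saos-2 and from 27.6% to 72.1% in U2OS.

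Members farther from coding genes were shared less often in U2OS. Within 1 to 5 kb of a coding end 55.0% of U2OS members (50.6 to 59.3%) were overlapped, at 5 to 50 kb 48.6% (46.0 to 51.2%), and beyond 50 kb 41.4% (38.6 to 44.3%). The Saos-2 shares ran in the same order, at 66.6%, 64.2% and 60.5%, but their intervals overlapped (61.9 to 70.9%, 61.3 to 67.1% and 57.0 to 63.8%). Hotspots at neither kind of end were also lowest beyond 50 kb. Their shares at the same distances were 44.2%, 44.1% and 37.9% in U2OS, and 54.9%, 53.7% and 50.03% in Saos-2. The difference between members and these hotspots was not tested across distances.

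Starts with a high CpG content were open more often than the others. A window was called CpG-rich at an observed to expected CpG ratio of at least 0.6. Of 1264 CpG-rich lncRNA starts more than 1 kb from coding ends, 24.5% (22.2 to 27.0%) were open, meaning that a member overlapped the window, in Saos-2 and 29.4% (27.0 to 32.0%) in U2OS. Of 7842 CpG-poor starts, 4.57% (4.13 to 5.05%) and 6.43% (5.91 to 6.99%) were open. As CpG-poor starts were more numerous, they made up 621 of the starts open in some line, against 439 CpG-rich ones. The share climbed with the ratio, from 3.49% in Saos-2 and 4.63% in U2OS below a ratio of 0.2 to 31.3% and 36.7% at 0.8 and over. Protein-coding starts were open more often within both CpG classes. In some line, 34.7% of CpG-rich lncRNA starts and 71.8% of CpG-rich coding starts were open, a difference of -37.0 points (-39.8 to -34.2). Among CpG-poor starts the shares were 7.92% and 15.1%, a difference of -7.17 points (-8.34 to -6.03). This did not hold below a ratio of 0.2. There 2.94% of coding starts were open in Saos-2 (2.27 to 3.80%) and 3.94% in U2OS (3.16 to 4.91%). The ratio was not matched within the classes.

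**Figure D3:**
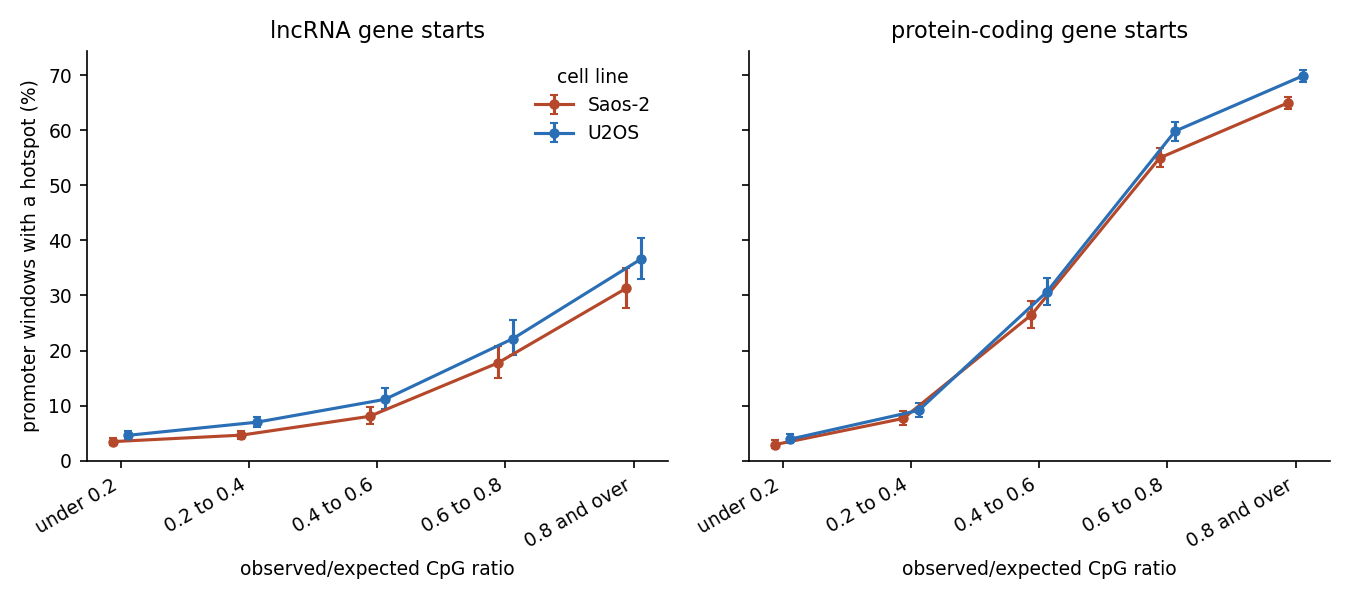
Percentage of promoter windows overlapped by a hotspot against the observed to expected CpG ratio, for lncRNA starts (left, members only) and protein-coding starts (right). Points are the 2 cell lines, and error bars are Wilson 95% intervals. At a ratio of 0.8 and over, 31.3% of lncRNA windows were open in Saos-2 and 36.7% in U2OS.

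CpG-rich lncRNA starts were also the more shared ones. Of 439 that were open in some line, 243 were open in both (55.4%, 50.7 to 59.9%). Of 621 open CpG-poor starts, 241 were open in both (38.8%, 35.1 to 42.7%), a difference of 16.5 points (10.5 to 22.5). At protein-coding starts the shared part was 78.9% for CpG-rich windows and 53.9% for CpG-poor ones. The lncRNA starts were lower than the coding starts by 23.6 points within the CpG-rich class (difference -23.6, -28.3 to -18.9) and by 15.1 within the CpG-poor class (-15.1, -20.2 to -9.84). The CpG content within each class was not matched. In finer bins of the ratio, the shared parts of lncRNA and coding starts were close below 0.4. They were 34.5% (28.7 to 40.8%) and 37.9% (28.8 to 47.9%) under 0.2, and 40.8% and 42.5% at 0.2 to 0.4. Above that the lncRNA starts were lower, with 42.3% and 63.1% at 0.4 to 0.6. The shared parts were 46.5% and 77.0% at 0.6 to 0.8, and 61.0% and 79.7% at 0.8 and over.

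Among the 9 motifs, the AP-1 word gave the widest gap in percentage points between open and other CpG-poor lncRNA starts, as in the windows of CYTOR, LUCAT1, LINC01531 and ITPR2-AS2 printed above. It was present in 99 of 241 CpG-poor lncRNA windows open in both lines (41.1%, 35.1 to 47.4%). It was present in 30 of 117 open in Saos-2 only (25.6%, 18.6 to 34.2%) and in 64 of 263 open in U2OS only (24.3%, 19.5 to 29.9%). Among 7221 CpG-poor windows open in neither line it was present in 453 (6.27%, 5.74 to 6.86%). Open windows thus held the word several times as often as closed ones of the same CpG class. The difference between windows open in both lines and in neither was 34.8 points (28.8 to 41.1), and between both lines and a single line 16.3 points (8.78 to 23.8). The single-line classes differed from each other by 1.31 points (-7.65 to 11.1), an interval that includes 0.

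CpG-poor protein-coding starts open in both lines held the word less often, in 57 of 414 windows (13.8%, 10.8 to 17.4%), which was 27.3 points below the lncRNA windows (20.3 to 34.3). In windows open in neither line the lncRNA and coding shares were 6.27% and 6.02%, a difference of 0.256 points (-0.665 to 1.14). Median GC content also differed between these sets: it was 49.7% in CpG-poor lncRNA windows open in both lines, 45.0% in those open in neither, and 57.0% in CpG-poor coding windows open in both. Its part in the motif shares was not tested. In CpG-rich lncRNA windows the word was rarer, at 4.10% of those open in some line. It was present in 4.94% of those open in both lines (2.85 to 8.43%) and 1.58% of those open in neither (0.923 to 2.68%). Over all 27303 promoter windows of the same length (chromosomes X and Y included, of any CpG content) it was present in 4.92%. The split by CpG class was chosen after the data were seen.

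**Figure D4:**
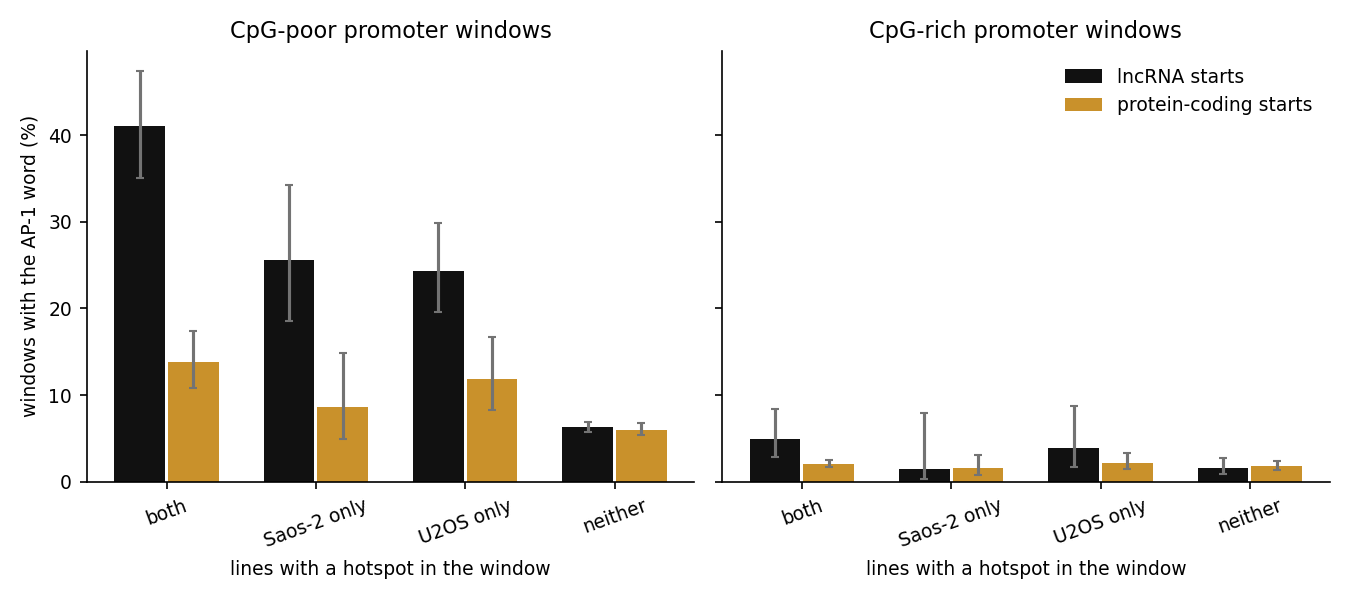
Percentage of promoter windows that hold the AP-1 word, by the lines in which the window was open, for CpG-poor (left) and CpG-rich (right) windows of lncRNA and protein-coding starts. Error bars are Wilson 95% intervals. In CpG-poor lncRNA windows the share was 41.1% where both lines were open and 6.27% where neither was.

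In CpG-rich lncRNA windows the cyclic AMP response element CRE, which is bound by CREB and ATF proteins, followed sharing. It was present in 19 of 243 windows open in both lines (7.82%, 5.06 to 11.9%), in 0 of 67 open in Saos-2 only (upper Wilson limit 5.42%) and in 1 of 129 open in U2OS only (0.775%, 0.137 to 4.26%). Windows open in both lines exceeded those open in a single line by 7.31 points (3.70 to 11.4) and those open in neither, of which 1.45% held it, by 6.36 points (3.41 to 10.5). CpG-rich coding windows open in both lines held it in 4.50% of cases, 3.32 points fewer than the lncRNA windows (0.507 to 7.42). CRE was present in 1.98% of all promoter windows. The GC box, the site of SP and KLF factors, was present in 72.0% of CpG-rich lncRNA windows open in both lines and in 55.5% of those open in neither. CpG-rich coding windows ran the other way, with 75.6% of those open in both lines and 80.0% of those open in neither. The share of all windows, CpG-poor ones included, was 44.6%.

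Gene names sort lncRNAs by how they were described, and the classes differed. Hosts of small nucleolar RNAs (SNHG symbols), whose introns are processed into guides of ribosomal RNA modification, had a member in 15 of 26 genes (57.7%). In 14 of these it was present in both lines and in 1 in U2OS only. This was 38.8 points above other lncRNA genes (20.1 to 55.6). Intergenic LINC genes had a member in 537 of 2260 (23.8%) and antisense genes in 433 of 1912 (22.6%), which exceeded the other lncRNA genes by 5.58 points (3.76 to 7.48) and 4.20 points (2.28 to 6.22). Genes with a provisional LOC symbol were lower, at 2035 of 11909 (17.1%, difference -5.74, -7.05 to -4.45). Divergent transcripts (-DT), which by definition start beside another gene, had a member in 70 of 531 (13.2%). The rule removes sites beside coding ends, so this share follows in part from the rule and is not compared with the other classes. MicroRNA hosts (MIR-HG) had one in 22 of 81 (27.2%), and their difference of 8.29 points had an interval that includes 0 (-0.215 to 18.9). The rule also removes sites beside microRNA genes, which lowers the count of this class.

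Named lncRNAs were taken from 9 lists of genes, which were chosen with earlier results of these data known. For named genes, open means a member near either end, and not only in the promoter window. Covered bases are given within 1 kb of the gene ends, and significance as the −log10 value of the library concerned, which is comparable within a line only. Over all 17433 lncRNA genes the median was 0 bp in both lines, because 81.1% had no member.

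Nuclear and architectural lncRNAs were open at all 5 genes, 4 in both lines and 1 in U2OS alone, and their median covered length was 99 bp in Saos-2 against 416 bp in U2OS. MALAT1, an abundant RNA of nuclear speckles, had 126 bp in Saos-2 (significance 2.17) against 439 bp in U2OS (5.34), both over the start. NEAT1, the scaffold of paraspeckles, had 58 bp in Saos-2 (1.42, percentile 0.818 of the list) and 416 bp in U2OS. MIAT, a nuclear RNA, had 99 bp (2.47) and 461 bp. Its Saos-2 site lay 902 bp from the start and reached past the 1 kb limit. NORAD, which binds Pumilio proteins, had 133 bp in U2OS (1.94, percentile 11.0) and none in Saos-2. These 4 genes had more covered bases in U2OS, but NEAT1 in Saos-2 and NORAD in U2OS rested on weak sites. The exception was KCNQ1OT1, an imprinted antisense RNA that silences its neighbours, with 365 bp in Saos-2 against 291 bp in U2OS.

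Of 10 imprinted lncRNAs, 3 had a member. KCNQ1OT1 and MEG9 were open in both lines, and the MEG9 sites nearly coincided, with 437 bp in Saos-2 (27.6) against 436 bp in U2OS (30.1). The MEG9 site lay 287 and 290 bp beyond its opposite end, not at its start. HYMAI, an imprinted RNA of the PLAGL1 locus, had 3 members covering 544 bp in U2OS and none in Saos-2. H19, MEG3, MEG8, PEG13, PWAR5, SNHG14 and AIRN had no member in either line.

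Hosts of small nucleolar RNAs on the fixed list were open in 11 of 20 genes, 10 of them in both lines and none in U2OS only. SNHG5 had the most bases in Saos-2, with 872 bp (17.6) against 457 bp in U2OS (6.33 at the start). SNHG29 had 566 bp (21.2) and 606 bp (17.5), SNHG15 had 497 and 578 bp, and SNHG25 had 484 and 458 bp. These last 3 had close values in the 2 libraries, while SNHG11 had 196 bp in Saos-2 against 417 bp in U2OS. EPB41L4A-AS1 was the host open in Saos-2 only, with 313 bp (3.65). Over all 20 hosts the median covered length was 182 bp in Saos-2 against 60 bp in U2OS. Both medians lie next to the zeros of hosts without a member, so their gap rests largely on EPB41L4A-AS1. It does not describe the hosts open in both lines. Of the 9 hosts with no member, GAS5, ZFAS1, SNHG1, SNHG3, SNHG6 and SNHG20 did have hotspots at an end in both lines, but within 1 kb of a coding end, so the rule left them out. SNHG4 had such a hotspot in U2OS only. The hotspot of DANCR, present in both lines, was left out because it lay within 500 bp of a tRNA or microRNA gene. SNHG18 had none.

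LncRNAs of HOX and other homeobox loci had no member at any of 15 genes in either line. Hotspots near HOTTIP, HOXA11-AS, HOXC-AS3 and HOXC13-AS were present in both lines but lay too close to coding ends. At HOTAIR, HOXA-AS2, HOXD-AS2, DLX6-AS1, PITX1-AS1 and the 6 others of the list, no hotspot lay within 1 kb of an end in either line.

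Among 10 lncRNAs linked to p53, members were present in both lines at NEAT1, in Saos-2 alone at DINOL and in U2OS alone at PURPL, PANDAR and DLEU2. PURPL, an RNA induced by p53, carried 1 hotspot over its start at chr5:27472035-27472573, of 539 bp and significance 29.7, at percentile 97.1 of the U2OS list. No Saos-2 hotspot lay within 1 kb of its ends. DINOL and PANDAR both lie beside CDKN1A, the gene of the cell cycle inhibitor p21, and had opposite patterns: DINOL had 337 bp (4.06) in Saos-2 and PANDAR had 125 bp in U2OS. DLEU2, a microRNA host of the chromosome 13 region often lost in leukaemia, had 290 bp in U2OS (9.70). LINC-PINT, TP53TG1, MIR34AHG, CDKN2B-AS1 and LINC02303 had no member. LINC-PINT and TP53TG1 did have a hotspot at an end in both lines, within 1 kb of a coding end.

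MicroRNA hosts were open in 7 of 17 genes. MIR17HG, the host of an oncogenic microRNA cluster, had 316 bp in Saos-2 (8.20) against 392 bp in U2OS (7.02) over its CpG-rich start. MIR4435-2HG had 155 and 149 bp, both weak sites (1.68 and 1.67). MIRLET7BHG, a let-7 host, had 267 bp in U2OS (9.92) and none in Saos-2. MIR100HG, MIR31HG and MIR193BHG also had members in U2OS only, with 209, 182 and 349 bp. The MIR31HG member lay over its opposite end, not at its start. CARMN, the host of smooth muscle microRNAs, was the one open in Saos-2 only, with 350 bp (5.39) over the start printed above. Of the hosts without a member, MIR22HG and MIR210HG had end hotspots in both lines and MIR155HG in U2OS, all left out for a coding end or a small RNA gene nearby.

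In the growth and cancer list 10 of 23 genes had a member, 5 in both lines, 1 in Saos-2 alone and 4 in U2OS alone. DLEU1 had the most, with 1002 bp in 4 Saos-2 members and 843 bp in 3 U2OS members. CRNDE had 368 bp (8.10) in Saos-2 against 325 bp (7.89) in U2OS, beside its start. NBAT1, a neuroblastoma lncRNA, had 421 and 180 bp, and CYTOR, a cytoskeleton regulator RNA, had 320 and 157 bp. CASC11, beside MYC, had 215 and 280 bp. AFAP1-AS1 was open in Saos-2 only, with 367 bp (6.79). SAMMSON, first described in melanoma, had 630 bp in U2OS (16.3), LUCAT1, a stress-responsive RNA, had 283 bp (5.06), LINC01116 had 209 bp and CCAT1 had 165 bp, with none in Saos-2. PVT1, CASC15, UCA1 and LINC00511 were among the 13 without a member. UCA1 had hotspots at its ends in both lines that lay within 1 kb of a coding end.

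The mesenchyme and bone list had a member at 6 of 17 genes, 3 of which (MIR100HG, MIR31HG and CARMN) are microRNA hosts described above. LINC01638 was open in both lines, with 391 bp in Saos-2 against 686 bp in U2OS. LINC01133 and LINC02381 were open in U2OS only, with 267 and 41 bp. DNM3OS, FENDRR, RUNX2-AS1, LINC01614, H19 and MEG3 had no member. DNM3OS had a hotspot at an end in both lines, within 500 bp of a tRNA or microRNA gene. Among 18 lncRNAs of other tissues, 4 had a member (22.2%), near the 18.9% of all lncRNA genes. BANCR was the strongest, with 546 bp in Saos-2 (19.2) against 94 bp in U2OS (1.69).

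**Figure D5:**
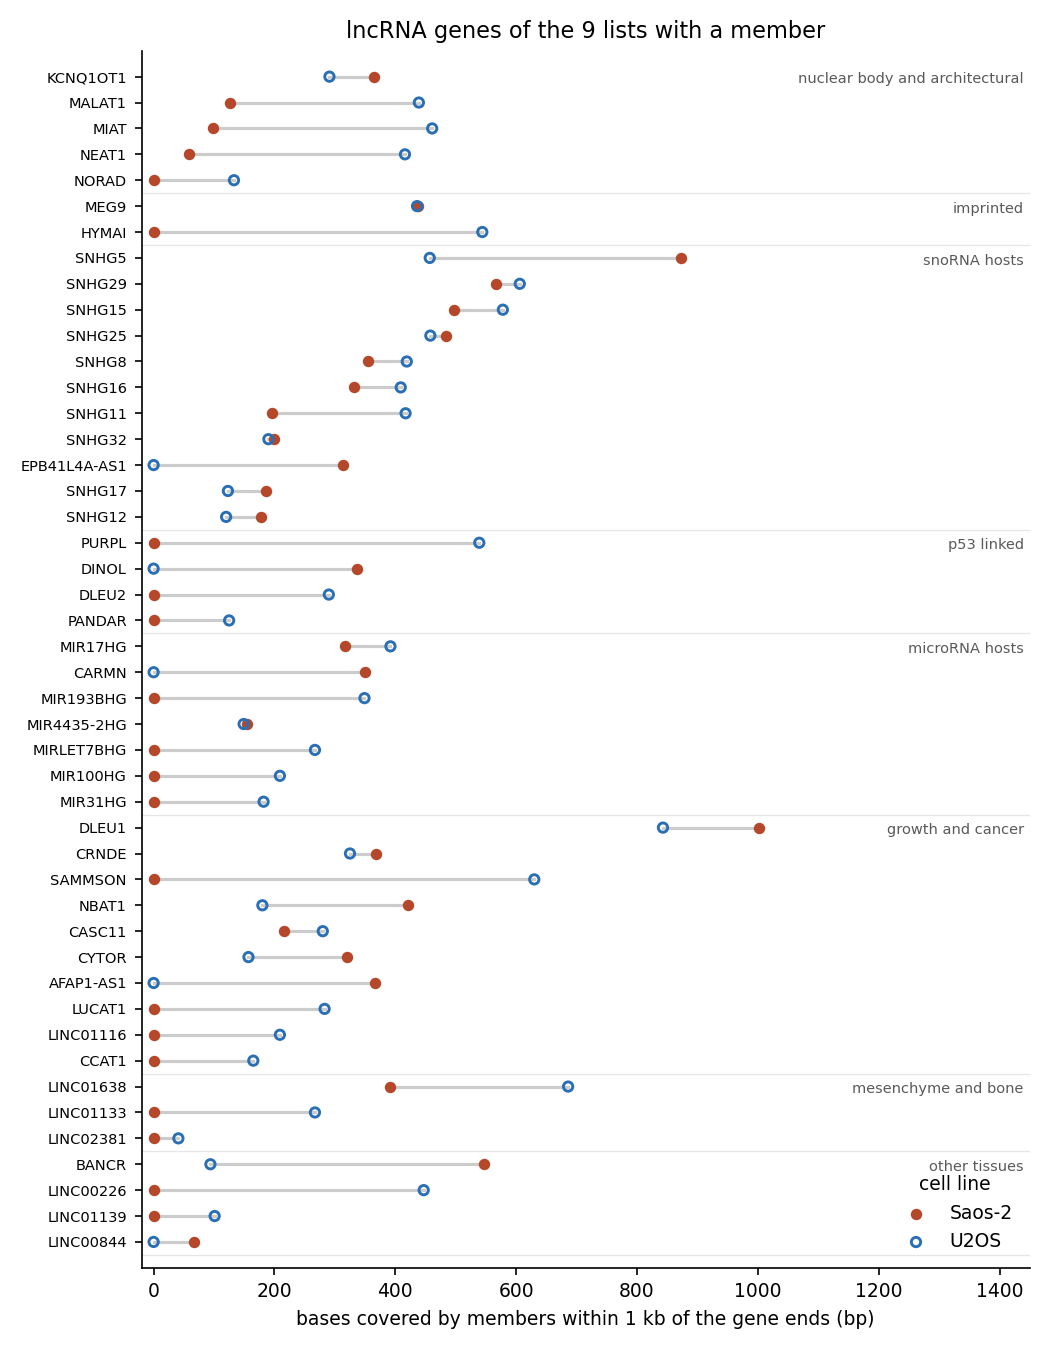
Bases covered by members within 1 kb of the gene ends for the 46 lncRNA genes of the 9 lists that had a member, grouped by list, with filled points for Saos-2 and open points for U2OS and 1 library each. No HOX gene appears because none had a member. Most hosts of small nucleolar RNAs were covered in both lines, while PURPL, SAMMSON and HYMAI had 539, 630 and 544 bp in U2OS and 0 in Saos-2.

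Among U2OS members without a counterpart, those of highest significance lay at named lncRNAs. LINC01531 carried a hotspot over its start at chr19:35405071-35405803, of 733 bp, significance 75.2 and percentile 99.9 of its list, with no overlapping Saos-2 hotspot. A hotspot shared by the starts of LINC02226 and MIR4458HG had a significance of 51.9, one 354 bp from the start of RPS6KA2-IT1 had 49.1, one over the start of LINC00839 had 41.1, and one at an end of SLCO4A1-AS2 had 40.8. In Saos-2 the strongest such member, at an end of LOC101928626, was at the upper limit of 100, but it covered copies of mitochondrial genes in the nuclear genome. The next 4 lay at LOC107986854 (30.3), LOC124903814 (28.9), LOC105377498 (23.7) and LOC105369788 (22.6). The site at LOC124903814 overlapped an annotated ribosomal RNA gene, a family with many copies.

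The strongest shared Saos-2 members, besides the mitochondrial copies, lay at LOC124901722, with 56.4 in Saos-2 and 30.5 in U2OS, at LOC107986414 (53.6 and 18.1), at LOC100630923 (42.9 and 52.6) and at LOC112268274 (41.2 and 11.2). In percentile of the list these were 99.8 and 97.4, 99.8 and 91.1, 99.6 and 99.6, and 99.5 and 80.6. LOC100630923 thus ranked alike in the lists, and LOC112268274 did not. Of the 5 strongest shared U2OS members, 4 lay at LOC124901928 (68.9 in U2OS and 6.76 in Saos-2), LOC124901584 (64.1 and 26.6), LOC105375852 (63.1 and 23.2) and LOC124901574 (62.0 and 9.59). At the other extreme, the weakest member of Saos-2, at PPM1L-DT, had a significance of 1.30 over 77 bp, and the weakest of U2OS, at LOC124904486, had 1.31 over 76 bp. Members at the middle of their lists had 4.13 at SLC9A3-OT1 in Saos-2 and 4.71 at LOC124902258 in U2OS.

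By covered bases, the genes open in Saos-2 only were led by UMODL1-AS1 (1209 bp), SCUBE1-AS1 (1143 bp), LOC101928796 (980 bp), ITPR2-AS2 (829 bp), LOC107986764 (815 bp) and LOC124909422 (812 bp). Those open in U2OS only were led by HCG27 (1257 bp in 5 members), LOC101930665 (1176 bp), LOC107986883 (1171 bp), LINC01094 (1168 bp), FGF12-AS2 (1164 bp) and LOC105371204 (1153 bp). HCG27 was covered by sites of middle rank at both of its ends, from percentile 30.5 to 62.0 of the U2OS list. None was above a significance of 6.27, while LOC101930665 had a single wide site of 13.8. Over both lines the most covered gene was LINC03146, with 1288 bp in Saos-2 against 1396 bp in U2OS.

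Counts per chromosome followed the overall ratio of members except on a few chromosomes. The log2 ratio of member numbers, U2OS over Saos-2, was 0.45 over all autosomes and was subtracted. Chromosome 21 was lowest, with 49 members in Saos-2 and 35 in U2OS, at -0.93 (95% counting interval -1.56 to -0.31). All hotspots of chromosome 21 were at -0.50 (-0.65 to -0.34) on the same scale. Chromosomes 13 and 1 followed at -0.37 (-0.83 to 0.09) and -0.29 (-0.55 to -0.03). With the top 50% of each list the value of chromosome 1 was -0.15, with an interval that includes 0 (-0.51 to 0.21). Chromosome 8 was highest, with 84 and 161 members, at 0.49 (0.11 to 0.87), where all hotspots were at 0.41. Chromosomes 18 and 15 followed at 0.46 and 0.43, with intervals that include 0. With lists of equal length chromosome 18 was at 0.58 (0.03 to 1.13). The number of copies of each chromosome was not measured, so copy number and accessibility cannot be told apart.

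Marker genes of cell types were counted as well. An end hotspot was present at 6 of 12 osteoblast genes in each line. RUNX2, SPARC, BGLAP, PTH1R and MSX2 had one in both lines, ALPL in Saos-2 alone and COL1A1 in U2OS alone. SP7, IBSP, COL1A2 and DLX5 were among those with one in neither. Mesenchyme genes had one in 4 of 7 cases in Saos-2 and 2 of 7 in U2OS. Epithelial genes had one in 0 of 6 and 3 of 6 (KRT8, KRT18 and CLDN4), blood genes in 2 of 5 in each line, endothelial genes in none of 3, neuronal genes in 1 of 2 (SNAP25) and liver genes in 1 of 3 (APOA1) in each line. Such hotspots were common at coding genes of any kind. Of 19126 protein-coding genes, 43.5% had one in both lines. A further 5.07% had one in Saos-2 but not U2OS, and 10.6% the reverse. The marker counts were not tested against these shares, and lists this short cannot check the labels. An end hotspot marks open chromatin and not expression.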

How the data were processed

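DNase-seq hotspot lists of Saos-2 and U2OS, 1 library per line, were used as deposited on hg38. Per the submitters' processing notes, Trimmomatic 0.38 and BWA 0.7.15 were used; the hotspot caller, duplicate handling and blacklist are not given in the sources used here. The deposited file names state a false discovery rate of 0.05. The deposited significance is a −log10 value per hotspot, from 1.30 to a limit of 100; the deposited whole-number score follows it and was not used. Both lists were called on single libraries. Read depth is unknown from these lists.

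Gene spans and promoter windows came from RefSeq (GRCh38.p14), with strand only for genes that have a promoter sequence. No genome was used here, so no sequence was read at the hotspots themselves. Members were found by edge distance, and overlap meant at least 1 bp. The significance was ranked within each list. Shares have Wilson and differences Newcombe 95% intervals (Python 3.11.15, pandas 2.3.3, numpy 2.4.6, scipy 1.17.1). Distance and overlap code was tested on simulated data. The members, gene lists and motifs were chosen with earlier results of these data known. Genes named were those of the 9 lists, per line the 6 genes with the most covered bases in that line alone, the 5 strongest shared and 5 strongest unshared members, the 5 genes most covered over both lines, the median and weakest members, and the chromosomes at either end of the ratio; some of these are not printed. Alternatives covered list length, merging, window, distance to coding genes, dense clusters, LOC genes, overlap and promoter class.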

Additional observations from a re-analysis of the deposited data

How the results depend on the processing

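No paired analysis was possible because each line had 1 library, and there was no replicate to leave out. Over 264 alternative values of 86 results, 145 moved by less than their counting interval, 119 moved by more and 0 reversed. For counts of genes or sites the limit was 1.5 times in place of the interval. A reversal is a change of sign, which applies only to differences and log2 ratios. Counts, shares, ranks and widths have no sign, so the 0 says nothing about them. The choice of CpG class for motifs and its list-length alternatives were added after seeing the data. In each group below the Saos-2 value comes first.

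With only the top 50% of each list, members numbered 1143 and 1567, overlap shares were 59.8% and 43.8%, median widths 358 and 352 bp, and the differences from coding ends -20.1 and -27.3 points. LncRNA genes with a member were then 701 in both lines and 836 in U2OS only. By name class there were 332 LINC, 1187 LOC, 262 antisense, 39 divergent, 10 intronic or overlapping, 12 microRNA host and 98 other genes. By list there were 3 nuclear, 7 snoRNA host, 3 p53-linked, 3 microRNA host, 3 mesenchyme and 2 other-tissue genes. The log2 ratio of chromosome 8 was 0.90, and shared open starts were 31.6% of CpG-poor lncRNA and 70.8% of CpG-rich coding starts. With lists of equal length, overlap shares were 57.6% and 51.2% and the U2OS median width 287.5 bp, so the gap between the lines in overlap share narrowed, as the setting shortens the U2OS list. Merging of hotspots less than 150 bp apart gave widths of 259 and 266.5 bp.

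A window of 500 bp gave overlap shares of 66.6% and 49.7%, median ranks of 54.2 and 52.8, widths of 258 and 262 bp, differences from coding ends of -13.5 and -20.6 and from other hotspots of 14.4 and 8.52 points. Starts with a member were then 9.49% and 12.3%, and opposite ends 2.36% and 3.40%. A window of 2.5 kb gave 3907 and 5242 members, shares of 59.9% and 44.8%, ranks of 48.1 and 48.8, widths of 236 and 247 bp, and differences of -20.2 and -25.6 and of 7.87 and 3.52 points. Genes with a member were then 2230 in both lines, 975 in Saos-2 alone and 2042 in U2OS alone. Without LOC genes, members numbered 937 and 1263, shares were 65.7% and 49.1%, differences -14.4 and -21.2 and 13.2 and 7.69 points, and genes 557, 218 and 491 in the same order. With an overlap of at least 50% of both hotspots, shares were 47.2% and 34.7%, and the Saos-2 difference from other hotspots was 8.41 points.

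For genes classed by a member near either end, CpG-rich windows were 38.7%, 28.2%, 27.0% and 22.3% (both lines, Saos-2 only, U2OS only, neither). With the member required to overlap the window, they were 50.2%, 36.4%, 32.9% and 10.3%, the AP-1 word was in 22.9%, 16.8%, 17.6% and 5.79%, and CRE in 4.96% (both) and 0.460% (neither). For genes over 5 kb from coding ends, CpG-rich windows were 28.8%, 18.5%, 18.98% and 7.68%, the AP-1 word was in 17.6% (both) and 5.96% (neither), and CRE in 0% (Saos-2 only) and 0.327% (neither). The causes of these shifts were not tested beyond what each setting removes by construction.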

Other observations

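Other letter patterns also differed between open and closed CpG-poor lncRNA windows. The RUNX word, named for a family that includes the osteoblast regulator RUNX2, was present in 75 of 621 windows open in some line (12.1%, Wilson 95% interval 9.74 to 14.9%) and in 452 of 7221 open in neither (6.26%, 5.72 to 6.84%). CpG-poor coding windows held it in 5.73% (4.30 to 7.60%) and 6.04% (5.37 to 6.79%) of the same classes. By line, the lncRNA share was 13.7% for Saos-2 only (8.60 to 21.1%) and 11.4% for U2OS only (8.11 to 15.8%), with intervals that overlap. The TATA box was present in 16.1% of open (13.4 to 19.2%) and 19.6% of closed (18.7 to 20.5%) CpG-poor lncRNA windows. These motif shares are descriptions of letters in RefSeq windows, and the AP-1 and RUNX shares were singled out after the data were seen.

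In CpG-rich lncRNA windows the CCAAT box, bound by NF-Y, was present in 41.2% of those open in both lines (35.1 to 47.4%), 29.9% of those open in Saos-2 only (20.2 to 41.7%), 24.0% of those open in U2OS only (17.5 to 32.1%) and 21.2% of those open in neither (18.6 to 24.1%). The ETS word was present in 8.23% (5.39 to 12.4%) of windows open in both lines and 2.55% (1.67 to 3.86%) of those open in neither.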
